A study of Mus musculus with 2 samples.

Results

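Intestinal absorptive cells are represented here by 10 genes chosen by name, of 43346 Ensembl genes in the tables: Fabp1, Fabp2, Lgals4, Vil1, Sis, Lct, Alpi, Apoa4, Cdh17 and Slc15a1. Their RNA was measured in tissue labelled as stomach from B6NCrl mouse embryos at embryonic day 15.5. The series has 1 group, with no treatment, mutation or second stage, and 2 libraries of total RNA, each made from 1 pool of male and female embryos. The pool of replicate 1 held 78 embryos and that of replicate 2 held 62. Individual embryos cannot be recovered from a pool, and the tissue holds many cell types, so fewer cells of a type and less RNA per cell cannot be told apart. All 10 genes were matched in the tables, and 8 of 10 were detected, meaning at 1 TPM or more in both libraries, where TPM is a gene's length-corrected share of all transcripts of a library.

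Absorptive cells, or enterocytes, are the most numerous cells of the intestinal lining. Their luminal surface carries a brush border of microvilli that are packed with actin bundles and with enzymes that finish the digestion of sugars, peptides and phosphate esters. Inside the cell, fatty acids bind to small carrier proteins and are re-esterified and exported in chylomicrons. Transcription factors of the Cdx, Hnf1, Hnf4 and Gata families are known regulators of these genes in the intestine. The normal adult stomach lining is made of mucous, acid, enzyme and endocrine cells and has no absorptive cells, while the duodenum begins directly beyond the pylorus. Fabp1 and Apoa4 are not specific to the intestine, since the liver also makes both.

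Replicate 1 was counted to a depth of 44038879 expected counts and replicate 2 to 45625704. Genes took 98.1% of the counts in replicate 1 and 97.0% in replicate 2, and added ERCC spike-in RNAs took 1.88% of them in replicate 1 and 2.999% in replicate 2. The biological coefficient of variation between the libraries was 19.7%. Markers of the stomach itself were present in the pools: 10 of 12 glandular stomach genes and 11 of 12 forestomach genes were detected. All 12 liver markers and all 12 exocrine pancreas markers were detected as well. The exocrine pancreas list had medians of 381 TPM in replicate 1 and 422 in replicate 2. For the liver list the medians were 75.2 TPM in replicate 1 and 26.4 in replicate 2. The glandular stomach list had medians of 31.9 TPM in replicate 1 and 17.1 in replicate 2. Those of the forestomach list were 125 TPM in replicate 1 and 49.5 in replicate 2. The series holds no condition, so every test below compares 2 libraries and not conditions, and intervals on counts describe counting error alone.

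The promoters of 4 members are shown because they hold letters known from intestinal gene control, and because these members span the range of levels, with Fabp1 at the top and Sis at the bottom. The sequences are RefSeq windows of GRCm38.p6, the mm10 build, each 120 bases long and written 5′ to 3′ on the strand of the gene. They end just before the start of the gene, taken as the more upstream of the RefSeq and GENCODE M21 starts. Capitals mark matches on either strand of 5 short motifs. The Cdx factors are represented by the letters TTTATG, which read CATAAA when they lie on the other strand. One arm of the palindrome that Hnf1 factors bind is represented by GTTAAT. The Hnf4 receptors are represented by the letters AAGTCCA. The zinc-finger Gata factors are represented by AGATAA, which reads TTATCT on the other strand. The TATA box is represented by TATAAA, which reads TTTATA on the other strand.
Fabp1 (chr6:71199707-71199826, plus strand): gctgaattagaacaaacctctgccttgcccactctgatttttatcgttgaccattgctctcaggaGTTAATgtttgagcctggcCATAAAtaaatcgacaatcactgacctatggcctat
Sis (chr3:72967864-72967983, minus strand): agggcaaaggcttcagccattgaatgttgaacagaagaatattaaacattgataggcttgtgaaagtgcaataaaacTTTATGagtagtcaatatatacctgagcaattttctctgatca
Lct (chr1:128328319-128328438, minus strand): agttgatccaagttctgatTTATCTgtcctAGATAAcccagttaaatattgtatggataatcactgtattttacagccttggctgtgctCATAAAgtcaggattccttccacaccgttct
Alpi (chr1:87101607-87101726, minus strand): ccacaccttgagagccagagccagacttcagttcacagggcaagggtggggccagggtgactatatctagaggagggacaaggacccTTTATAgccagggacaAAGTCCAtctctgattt

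Positions are counted back from the RefSeq start. In Fabp1 the Cdx letters lay at -88 to -83, beside Hnf1 letters at -107 to -102. A TATA match at -30 to -25 and a second Cdx match at -226 to -221 fell outside the stretch shown. In Sis the Cdx letters lay at -43 to -38. Outside the stretch shown, Sis held Hnf1 letters at -165 to -160 and TATA letters at -138 to -133 and -134 to -129. In Lct the Cdx letters lay at -31 to -26, with Gata letters on both strands at -101 to -96 and -90 to -85. Alpi held Hnf4 letters at -17 to -11 and TATA letters at -33 to -28. Over the full windows, from 250 bases before to 50 bases after the start, the Cdx letters were found in 3 of the 9 members with a window and in 11.9% of all 32851 windows. The Hnf1 letters were found in 2 of 9 members and 7.10% of windows, the Hnf4 letters in 1 of 9 and 4.17%, the Gata letters in 1 of 9 and 11.2%, and the TATA letters in 3 of 9 and 13.6%. No searched motif overlapped another in the stretches shown. None of the motifs was found in the windows of Fabp2, Lgals4, Vil1, Apoa4 or Slc15a1. The Cdx letters were shared by members of very different level, since Fabp1, Lct and Sis had means over both libraries of 445 TPM, 2.58 TPM and 0.135 TPM.

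The members stood high among protein-coding genes but spanned a wide range. Their median was 29.3 TPM in replicate 1 and 40.8 TPM in replicate 2, beside medians of 5.70 TPM in replicate 1 and 5.72 in replicate 2 over all protein-coding genes, of which 64.5% were detected. Of the members, 7 lay above the protein-coding median in both libraries. Their TPM summed to 939.1 in replicate 1, or 0.0978% of the TPM of all genes, and to 1145 in replicate 2, or 0.122%. Fabp1 and Lgals4 alone made up 73.6% of that sum in replicate 1 and 75.3% in replicate 2. The highest detected member exceeded the lowest detected one 163-fold in replicate 1 and 182-fold in replicate 2.

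**Figure D1:**
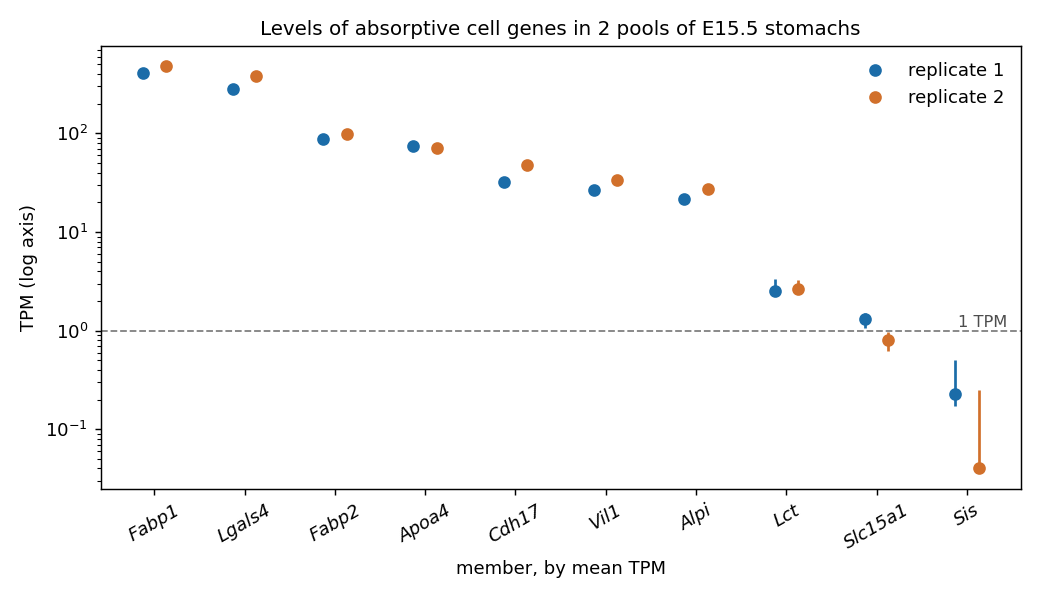
TPM of the 10 absorptive cell genes on a log axis, in order of their mean, with 1 point per library and vertical lines for the interval deposited by the authors, whose level was not stated. The order of the members is the same in both libraries, and Sis is the only member below 1 TPM in both.

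The order by mean TPM was Fabp1, Lgals4, Fabp2, Apoa4, Cdh17, Vil1, Alpi, Lct, Slc15a1 and Sis, and both libraries gave it. Among the 9 pairs of neighbours, Cdh17 and Vil1 did not differ beyond their spread, nor did Vil1 and Alpi, because their ranges over the libraries overlapped. The other 7 pairs differed by more than the larger SD, with no overlap. The widest step between neighbours above 1 TPM was from Alpi to Lct, where Alpi was 8.66 times as high in replicate 1 and 10.3 times as high in replicate 2. Without correction for length, the order by count placed 5 of 10 members in the same position, and Lgals4 came before Fabp1.

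The lipid carriers were among the most abundant transcripts of the absorptive set. Fabp1 (ENSMUSG00000054422.7, mm10 chr6:71199827-71205023, plus strand, 4 exons) encodes the liver-type fatty acid-binding protein of hepatocytes and enterocytes. It had 410.1 TPM from 5748 counts in replicate 1 and 479.6 TPM from 6752 counts in replicate 2 (445 ± 49.2 TPM, SD, n = 2), and stood at percentile 98.6 of protein-coding genes in replicate 1 and 98.9 in replicate 2. Fabp2 (ENSMUSG00000023057.5, chr3:122895072-122899506, plus strand, 4 exons) encodes the intestinal fatty acid-binding protein, a marker of absorptive cells of the small intestine. It had 88.3 TPM from 2361 counts in replicate 1 and 99.5 TPM from 2673 counts in replicate 2 (93.9 ± 7.94 TPM), at percentile 91.9 in replicate 1 and 92.7 in replicate 2. Fabp2 was at 21.5% of the level of Fabp1 in replicate 1 and 20.8% in replicate 2, nearly the same share in both pools. Apoa4 (ENSMUSG00000032080.6, chr9:46240696-46243459, plus strand, 3 exons) encodes an apolipoprotein of chylomicrons. It had 75.2 TPM in replicate 1 and 70.6 TPM in replicate 2 (72.9 ± 3.26 TPM). Apoa4 was the only member whose counts, 3982.3 in replicate 1 and 3754.66 in replicate 2, were not whole in both libraries at a tolerance of 0.005. Its exons overlap the antisense gene Gm10680 on the other strand, which had 39.7 counts in replicate 1 and 9.34 in replicate 2, and since the strand setting of the counting is not known, reads in the overlap cannot be told apart.

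The genes of the cell surface and the microvillus core were at intermediate to high levels. Lgals4 (ENSMUSG00000053964.12, chr7:28833854-28841708, plus strand) encodes galectin-4, a sugar-binding lectin of the gut epithelium. It had 281 TPM from 9806 counts in replicate 1 and 383 TPM from 13444 counts in replicate 2 (332 ± 72.2 TPM), at percentile 97.8 in replicate 1 and 98.4 in replicate 2. Cdh17 (ENSMUSG00000028217.7, chr4:11758147-11817895, plus strand, 18 exons in its main transcript) encodes LI-cadherin, which joins intestinal epithelial cells at their lateral faces. It had 32.1 TPM from 3331 counts in replicate 1 and 48.1 TPM from 5013 counts in replicate 2 (40.1 ± 11.3 TPM). Vil1 (ENSMUSG00000026175.8, chr1:74409376-74435559, plus strand, 20 exons in its main transcript) encodes villin, which bundles the actin of microvilli. It had 26.4 TPM from 2429 counts in replicate 1 and 33.5 TPM from 3116 counts in replicate 2 (29.98 ± 5.04 TPM). All 3 genes had a lower TPM in replicate 1 than in replicate 2. The end of Vil1 overlaps an exon of Usp37 on the opposite strand, a gene at 19.8 TPM in replicate 1 and 21.6 in replicate 2.

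The digestive enzymes were split between 1 clearly expressed gene and the disaccharidases at low levels. Alpi (ENSMUSG00000079440.2, chr1:87098002-87101606, minus strand, 11 exons) encodes intestinal alkaline phosphatase, anchored in the brush border. It had 21.8 TPM from 1508 counts in replicate 1 and 27.1 TPM from 1882 counts in replicate 2 (24.5 ± 3.74 TPM). Lct (ENSMUSG00000026354.8, chr1:128284756-128328318, minus strand, 17 exons in its main transcript) encodes lactase, the milk sugar enzyme of suckling mammals. It had 2.52 TPM from 472 counts in replicate 1 and 2.63 TPM from 496 counts in replicate 2 (2.58 ± 0.0778 TPM), at percentile 41.3 in replicate 1 and 41.9 in replicate 2, so it was detected but below the protein-coding median in both pools. Sis (ENSMUSG00000027790.10, chr3:72888557-72967863, minus strand) encodes sucrase-isomaltase, which in mice is known to appear in quantity only around weaning. It had 0.23 TPM from 32 counts in replicate 1 and 0.04 TPM from 8 counts in replicate 2, with exact 95% Poisson intervals of 21.9 to 45.2 counts in replicate 1 and 3.45 to 15.8 counts in replicate 2. The interval of replicate 2 corresponds to 0.0173 to 0.0788 TPM, while the authors' posterior-mean TPM of Sis was 0.33 in replicate 1 and 0.13 in replicate 2, above the point values in both. Slc15a1 (ENSMUSG00000025557.9, chr14:121459621-121505252, minus strand, 23 exons) encodes the proton-coupled carrier PepT1 that takes up small peptides. It had 1.30 TPM from 121 counts in replicate 1 and 0.80 TPM from 75 counts in replicate 2 (1.05 ± 0.354 TPM), so it passed 1 TPM in 1 pool only. Lct, Slc15a1 and Sis were the 3 lowest members in each pool.

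Against related genes of their families, the members were sometimes the leading gene and sometimes a minor one. In the family of intracellular lipid-binding proteins 11 of 15 genes were detected, and Fabp1 came after Fabp5, the epidermal-type carrier, which had 609 TPM in replicate 1, against 499.6 TPM in replicate 2. Fabp4, the adipocyte and endothelial type, had 60.2 TPM in replicate 1 and 67.6 in replicate 2, and Rbp2, the retinol carrier of enterocytes, had 59.8 TPM in replicate 1 and 56.9 in replicate 2. Fabp6, the bile acid carrier of the ileum, had 9.21 TPM from 108 counts in replicate 1 and 0.68 TPM from 8 counts in replicate 2. Fabp9 was at 0 counts in both libraries, and Pmp2 had 1 count in replicate 1 and 0 in replicate 2. Among the 8 galectin genes matched, Lgals4 was second to Lgals1, a mesenchymal galectin at 1209 TPM in replicate 1 and 1059 in replicate 2. Lgals2, another galectin of the gut epithelium, followed at 173 TPM in replicate 1 and 244 in replicate 2, and Lgals3 had 54.3 TPM in replicate 1 and 40.2 in replicate 2. Relative to the median gene, Lgals2 and Lgals4 were both lower in replicate 1 than in replicate 2, with log2 ratios of -0.46 and -0.41.

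In the villin and gelsolin family 7 of 8 genes were detected, and 4 of them, Gsn, Svil, Capg and Flii, were higher than Vil1. Gsn, encoding gelsolin, which severs actin filaments, led with 205 TPM in replicate 1, against 187 TPM in replicate 2. Vill, the villin-like gene, had 25.9 TPM in replicate 1 and 27.4 in replicate 2 and so lay next to Vil1. Alpi led the 4 alkaline phosphatases: Alpl, the tissue-nonspecific enzyme, had 8.88 TPM in replicate 1 and 7.96 in replicate 2, Alppl2 had 1 count in each library, and Akp3, which encodes another intestinal alkaline phosphatase, had 1 count in replicate 1 and 0 in replicate 2. Alppl2 and Akp3 are close relatives of Alpi, and the whole counts of Alpi in both libraries carried no fraction of a shared read. Among glycosidases, Mgam, encoding maltase-glucoamylase, had 1.92 TPM in replicate 1 and 2.26 in replicate 2, close to Lct. Treh, encoding trehalase, had 4 counts in replicate 1 and 0 in replicate 2.

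In the apolipoprotein cluster of Apoa4, Apoa1 had 489 TPM in replicate 1 and 419 TPM in replicate 2, Apoc3 had 36.4 TPM in replicate 1 and 40.1 in replicate 2, and Apoa5 had 5 counts in replicate 1 and 9 in replicate 2. Apoa1 and Apoc3 encode lipoprotein components made by liver and intestine, whereas Apoa5 is a gene of the liver. Cdh17 was at 23.9% of the level of Cdh1, the general epithelial cadherin, in replicate 1 and at 31.2% in replicate 2. Cdh1 had 134 TPM in replicate 1 and 154 in replicate 2. Cdh16, the kidney cadherin of the same subfamily, had 0.64 TPM in replicate 1 and 0.99 in replicate 2. Slc15a1 ranked below Slc15a4, a lysosomal carrier at 15.8 TPM in replicate 1 and 17.2 in replicate 2, and below Slc15a2, encoding PepT2, at 2.75 TPM in replicate 1 and 2.94 in replicate 2. Slc15a5 was at 0 counts in both libraries.

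**Figure D2:**
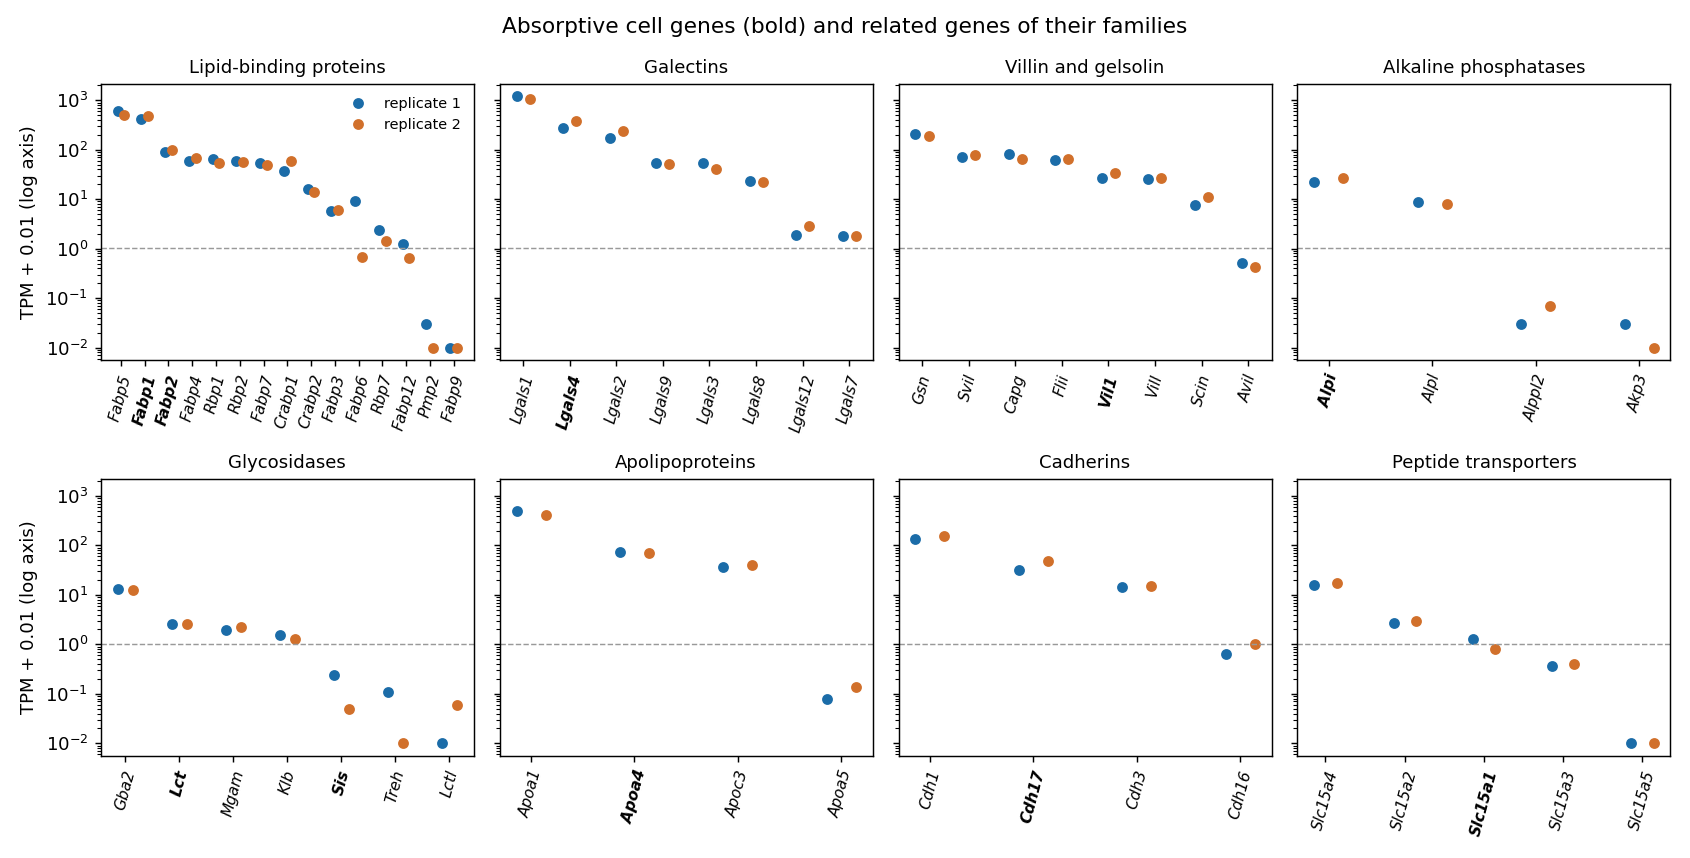
TPM plus 0.01 on a log axis for the members, in bold, and the other genes of 8 families, with 1 point per library and a dashed line at 1 TPM. Alpi is the highest gene of its family, Fabp1, Lgals4, Lct, Apoa4 and Cdh17 are the second highest of theirs, and a point at the bottom is a gene listed at 0.

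Other genes of the absorptive cell were detected too. Over 5 lists with 70 genes besides the members, 61 were detected, beside 64.5% of all protein-coding genes. These lists were chosen with earlier results of these data known. The median of the 70 was 9.53 TPM in replicate 1, against 12.3 TPM in replicate 2. Of the brush border structure genes 13 of 14 were detected, led by Ezr at 187 TPM in replicate 1 and 182 in replicate 2, Eps8 at 31.6 TPM in replicate 1 and 34.2 in replicate 2 and Pls1 at 26.6 TPM in replicate 1 and 29.8 in replicate 2. Ezr, encoding ezrin, ties the membrane to actin in many epithelia, and Eps8 and Pls1 act on microvillus actin. Of the other brush border hydrolases 9 of 12 were detected, led by Anpep, encoding aminopeptidase N, at 29.2 TPM in replicate 1 and 39.6 in replicate 2. Dpp4 followed at 18.6 TPM in replicate 1 and 18.5 in replicate 2 and Enpep at 16.2 TPM in replicate 1 and 20.9 in replicate 2. The levels of these peptidases were nearer to that of Alpi than to that of Lct, but they were named as the 3 highest of their list. The medians of that list were 4.755 TPM in replicate 1 and 3.31 in replicate 2, nearer to Lct.

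Of the nutrient and ion transporters 11 of 14 were detected, with medians of 4.145 TPM in replicate 1 and 4.125 in replicate 2. The iron exporter Slc40a1 led with 123 TPM in replicate 1, against 121 TPM in replicate 2, followed by the iron importer Slc11a2 at 19.6 TPM in replicate 1 and 20.9 in replicate 2, then the amino acid carrier Slc7a9 at 10.3 TPM in replicate 1 and 12.2 in replicate 2. Of the genes of lipid absorption and chylomicron assembly 12 of 14 were detected, with medians of 26.3 TPM in replicate 1 and 34.1 in replicate 2. After Apoa1 the highest were Rbp2, given above, and Dgat2, a triglyceride-synthesising enzyme, at 57.6 TPM in replicate 1 and 56.0 in replicate 2. All 16 enterocyte transcription factors were detected. Klf5 was highest at 101 TPM in replicate 1 and 86.4 in replicate 2, followed by Gata4 at 29.1 TPM in replicate 1 and 44.3 in replicate 2 and Hnf4a at 27.5 TPM in replicate 1 and 35.5 in replicate 2, and these factors also act in stomach or liver epithelium. The intestinal factors Cdx1, at 13.7 TPM in replicate 1 and 13.3 in replicate 2, and Cdx2, at 6.65 TPM in replicate 1 and 7.95 in replicate 2, were named after their values were seen.

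Markers of other cells and organs were measured beside these. Of the genes of other intestinal epithelial cells 10 of 13 were detected, among them Spink4 with 33.2 TPM in replicate 1 against 43.5 TPM in replicate 2, Fcgbp at 35.6 TPM in replicate 1 and 33.7 in replicate 2 and Zg16 at 27.9 TPM in replicate 1 and 11.7 in replicate 2, which are genes of goblet and related secretory cells. All 6 genes of duodenum and pylorus were detected, including the hormone genes Sst at 15.9 TPM in replicate 1 and 16.3 in replicate 2 and Gast at 13.4 TPM in replicate 1 and 12.3 in replicate 2. Of 6 colon markers 1 was detected, Aqp8 at 22.2 TPM in replicate 1 and 28.9 in replicate 2. Car1, a carbonic anhydrase gene that was not detected, had 62 counts in replicate 1 and 28 in replicate 2. Of 8 kidney and yolk sac markers, tissues that share brush border genes with the gut, 2 were detected. The general epithelial genes were at medians of 349 TPM in replicate 1 and 392 in replicate 2, while Fabp1 was 1.23 times as high as Epcam, the pan-epithelial surface gene, in replicate 1 and 1.34 times in replicate 2. From which dissected tissue the absorptive transcripts came was not tested.

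Between the pools, 9 of 10 members differed by less than 2-fold. Counts of 20918 genes were compared with an exact binomial test (two-sided, Benjamini-Hochberg adjustment). A gene was called where the adjusted p was under 0.05 and the log2 ratio, replicate 1 over replicate 2, was 1 or more in size. By this rule 1 of 10 members was called, Sis, higher in replicate 1, beside 6.72% of all genes tested, with 5.91% of genes called higher in replicate 1 and 0.808% called higher in replicate 2. The share of 1 in 10 rests on a single gene of few counts. Its log2 ratio was 1.98 with a 95% counting interval of 0.89 to 3.37 and an adjusted p of 0.000565 by the exact binomial test. With the edgeR exact test at the common dispersion, which called 3.28% of genes, no member was called, 1 had an unadjusted p under 0.05, and Sis had an adjusted p of 0.11. That dispersion was estimated from the same 2 pools taken as replicates of 1 group, so it includes the differences under test.

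All directions here are relative to the median gene: scaling by spike-in totals moved that gene by 0.68 on the log2 scale and turned the ratios of all 7 members below 0 to above 0. At the depth of these libraries differences smaller than 2-fold passed the adjusted p alone. By that measure 9 of 10 members differed, beside 32.0% of genes. Of these members, 3 were higher in replicate 1, beside 16.8% of genes, and 6 were higher in replicate 2, beside 15.2%. The shares over all genes are not matched to the members by count. They cover every gene with 10 or more counts in the sum, and smaller ratios pass where counts are higher. Cdh17 had the largest difference of the 6, with a log2 ratio of -0.55 (95% counting interval -0.61 to -0.48, adjusted p = 6.43e-64 by the exact binomial test). It was followed by Lgals4 at -0.41, Vil1 at -0.32, Alpi at -0.28, Fabp1 at -0.19 and Fabp2 at -0.14, with adjusted p-values by the same exact test between 4.41e-102 and 0.00381. The members higher in replicate 1 besides Sis were Slc15a1 at 0.73 (interval 0.30 to 1.17, adjusted p = 0.00285 by the exact binomial test) and Apoa4 at 0.13 (adjusted p = 0.00065 by the same exact test). Lct had a ratio of -0.03 with an interval of -0.21 to 0.16 and an adjusted p of 0.881 by the exact binomial test, so a difference was not detectable at this depth.

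**Figure D3:**
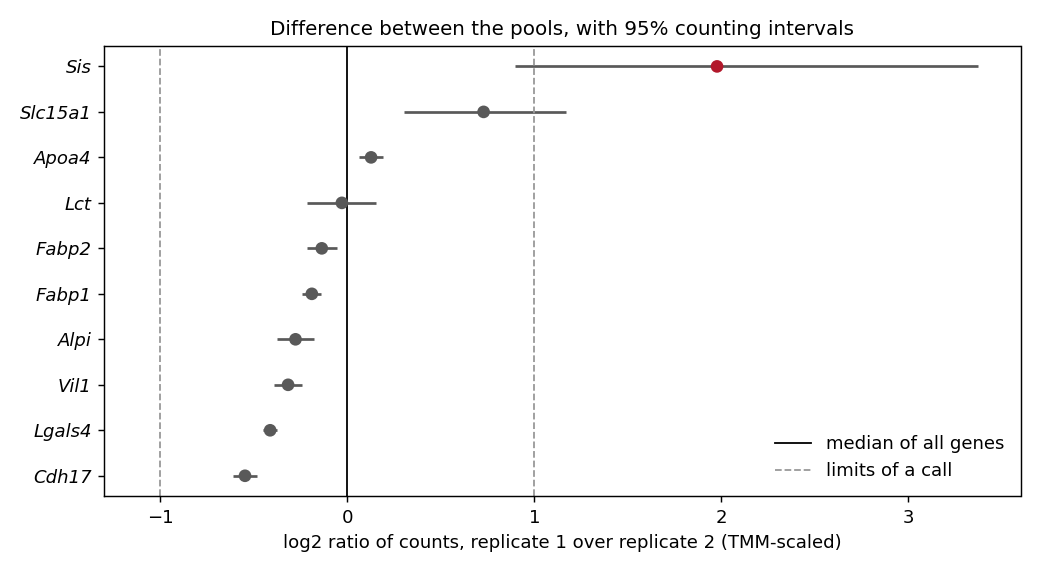
Log2 ratio of TMM-scaled counts, replicate 1 over replicate 2, for each member, with horizontal lines for the 95% counting interval, a solid line at the median of all genes and dashed lines at the limits of a call. Sis, in red, is the only member called, and 7 members lie to the left of the median of all genes, a side they keep relative to that median but not relative to 0 under spike-in scaling.

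The median log2 ratio of the members was -0.16, beside -0.0015 over all genes whose 2 counts summed to 20 or more. Without regard to sign their median was 0.30, beside 0.13 over all genes and 0.11 over protein-coding genes. Of the 67 further absorptive genes tested, 2 were called higher in replicate 1 and 0 were called higher in replicate 2 by the exact binomial test, beside 6.72% of all genes called in either direction, and their median ratio was -0.12. With no minimum of the log2 ratio the same test passed 37 of them, beside 32.0% of all genes, a share not matched by count either. The edgeR exact test called 1 of them, beside 3.28%. Those called by the binomial test were Tmigd1, a brush border adhesion gene with 40 counts in replicate 1 and 7 in replicate 2 and a log2 ratio of 2.48, and Naaladl1, a peptidase gene at 4.86 TPM in replicate 1 and 2.44 in replicate 2 with a ratio of 1.03. Among the family genes Fabp6 and Fabp12 were called higher in replicate 1, and among the other gut markers Zg16 and Car1. Of these, the edgeR exact test called Fabp6 and Tmigd1 only, and the adjusted p by that test was 0.53 for Fabp12, 0.0733 for Zg16, 0.487 for Car1 and 0.324 for Naaladl1.

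Lists of other organs differed between the pools in both directions relative to the median gene. Of all genes tested, the binomial test called 5.91% higher in replicate 1 and 0.808% higher in replicate 2. The adjusted p alone passed 32.0%, with 16.8% higher in replicate 1 and 15.2% higher in replicate 2, shares not matched to the lists by count. The edgeR exact test called 3.28%. No gene of the duodenum and pylorus list or the kidney and yolk sac list was called by the binomial test. The adjusted p alone passed 3 of the 6 and 2 of the 8. In the liver list 11 of 12 genes were called higher in replicate 1, with a median log2 ratio of 1.58. Alb, encoding albumin, had 225 TPM in replicate 1 against 67.7 TPM in replicate 2, and Afp, encoding alpha-fetoprotein, had 497 TPM in replicate 1 and 203 in replicate 2. Fabp1 and Apoa4, the members that liver also makes, had ratios of -0.19 and 0.13. In the forestomach list 6 of 12 genes were called higher in replicate 1, with a median of 0.96, and in the glandular stomach list 4 of 12 were called higher in replicate 1 and 1 higher in replicate 2, with a median of 0.48. The edgeR exact test called 3 of 12 forestomach genes, against 6 by the binomial test, and 1 of 12 glandular stomach genes, Gkn1, against 5, while it called 10 of 12 liver genes. The exocrine pancreas list had a median of -0.46 and 0 of 12 called, although 11 of its genes passed the adjusted p alone as higher in replicate 2, and Ctrb1, a digestive protease gene, had 2664 TPM in replicate 1 and 3323 in replicate 2. In the general epithelium list the median was -0.02 with 0 of 8 called, 7 passing the adjusted p alone. The part of these differences in the ratios of the absorptive genes was not tested.

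**Figure D4:**
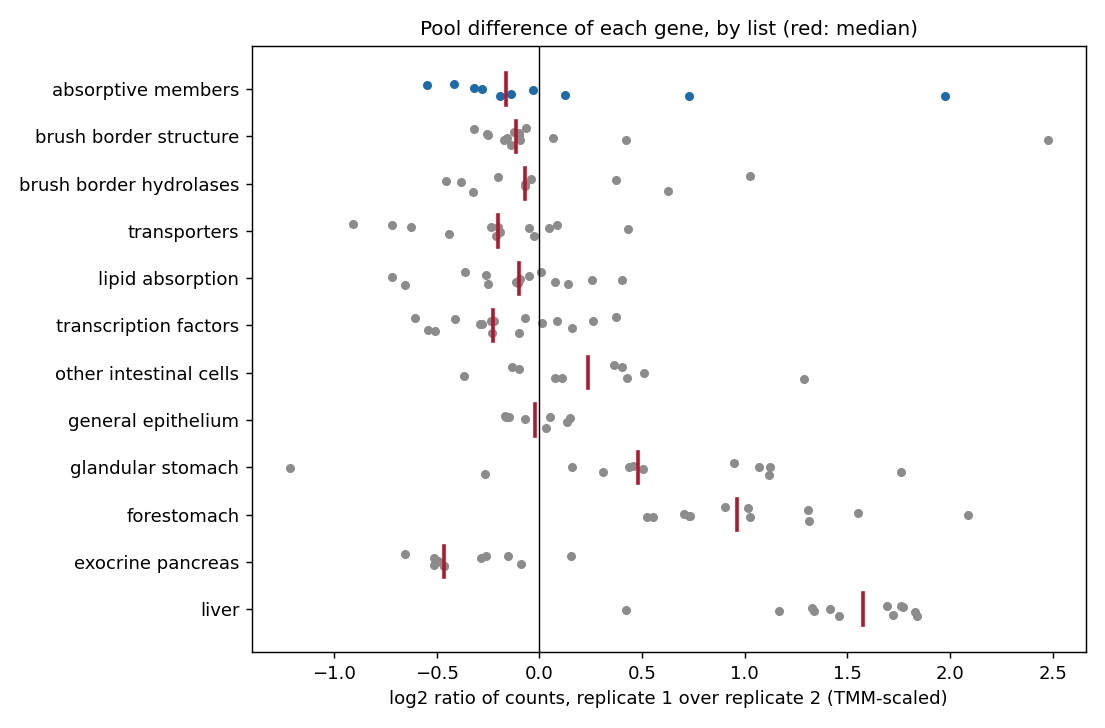
Log2 ratio of TMM-scaled counts, replicate 1 over replicate 2, of every gene whose counts summed to 20 or more, by list, with the median of each list in red and vertical scatter added for legibility. The members have a median of -0.16, while the liver list has a median of 1.58 and the exocrine pancreas list one of -0.46.

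The deposited transcript values divide the TPM of each member over its annotated transcripts, an allocation that carries an error of its own. Fabp1, Fabp2, Alpi, Apoa4 and Slc15a1 have 1 annotated transcript, so these values say nothing of their splicing, and the other 5 members have more. Lct-201, Cdh17-201 and Vil1-201, all protein coding, took nearly the whole of their gene's TPM in both libraries. Lct-201 took 100% in both, Cdh17-201 took 99.5% in replicate 1 and 99.8% in replicate 2, and Vil1-201 took 98.2% in replicate 1 and 98.9% in replicate 2. By the authors' posterior means the share of Lct-201 was lower, at 88.7% in replicate 1 and 91.7% in replicate 2. That of Vil1-201 was 96.7% in replicate 1 and 97.4% in replicate 2, and that of Cdh17-201 was 99.4% in replicate 1 and 99.8% in replicate 2. Over the 9966 genes with several transcripts and at least 100 counts in each library, the median share of the main transcript was 69.0%. Lgals4 was the mixed member. Its coding transcript Lgals4-201, with 10 exons and 1384 bases, took 70.8% in replicate 1 and 72.8% in replicate 2. Averaged over both libraries, its share was 71.8% by TPM and 81.6% by expected counts, which carry no length correction.

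The rest of the Lgals4 TPM lay on shorter annotated transcripts. Lgals4-203, annotated as retaining an intron, took 13.8% in replicate 1 and 10.9% in replicate 2. Of the other retained-intron forms, Lgals4-204 took 6.77% in replicate 1 and 6.19% in replicate 2, and Lgals4-205 took 5.32% in replicate 1 and 6.29% in replicate 2. Lgals4-206, annotated for nonsense-mediated decay, took 2.87% in replicate 1 and 3.30% in replicate 2. Lgals4-202, also annotated as retaining an intron, took 0.52% in replicate 1 and 0.50% in replicate 2. The change of the main share between the pools, 2.01 percentage points, was below the median absolute difference of 3.19 points over all genes with several transcripts. For Sis the tables placed the reads on Sis-202 and Sis-203 in replicate 1 and on Sis-201 in replicate 2, an assignment that rests on 32 counts in replicate 1 and 8 in replicate 2.

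**Figure D5:**
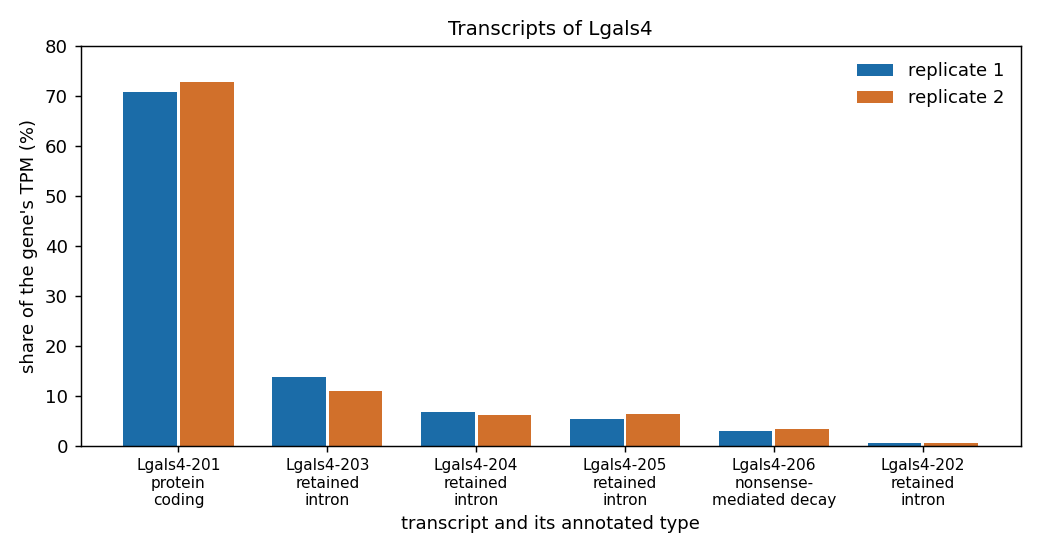
Share of the TPM of Lgals4 on each of its 6 annotated transcripts, in percent, with 1 bar per library and no error bars. The coding transcript takes 70.8% in replicate 1 and 72.8% in replicate 2, and the order of the others is led by a retained-intron form at 13.8% in replicate 1 and 10.9% in replicate 2.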

How the data were processed

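Total RNA above 200 nucleotides was taken from each pool of stomach tissue, with 10 ng of input and ERCC spike-ins, per the labels. The aligner, quantifier and strand setting are not given in the sources used here. Reads were placed on mm10 with annotation M4, per the file headers and the text deposited with them. The authors deposited an expected count per gene and transcript, which divides reads that match several features. TPM and FPKM were scaled by the authors for effective length and library size. The deposited transcript tables give each transcript's share of the gene's TPM in percent. Further deposited signal columns hold posterior-mean TPM, posterior SDs and interval bounds whose level is not stated.

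Expected counts were rounded for tests. Symbols and coordinates came from GENCODE M21, matched for 42462 of 43346 genes. Library sizes used TMM (edgeR 4.0.16), and 20918 genes whose counts summed to 10 or more were compared by a two-sided exact binomial test with Benjamini-Hochberg adjustment and a prior count of 0.5 for ratios. The 2 pools leave no residual spread within a pool, and the test covers counting error only. The edgeR exact test, DESeq2 1.42.0 size factors, library totals and spike-in totals were alternatives. The scripts were tested on simulated counts with Poisson error alone. That simulation held no variation between pools, so it does not cover the spread between these 2 libraries. Spike-ins were left out of library sizes. Both libraries were used. The members and 22 other gene lists were chosen with earlier results of these data known. Named are all members, all genes of the 8 family lists, and of each other list the 3 highest detected genes and those called, unless stated. Promoter letters were searched in RefSeq windows of GRCm38.p6.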

Additional observations from a re-analysis of the deposited data

How the results depend on the processing

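No paired analysis was possible because the series has 1 group. Leaving out each replicate gave 8 to 9 members detected and a median of 29.3 to 40.8 TPM, and 62 to 63 of the other absorptive genes detected. FPKM put the members' median at 24.1, since it is scaled lower than TPM. Counts kept 5 of 10 members in place in the order by level, since they carry no length correction. Against 1406 genes called, 88.0% of them higher in replicate 1, spike-in totals called 3504 (98.4% higher in replicate 1), a minimum of 100 counts 568, no minimum of the log2 ratio 6700 (52.5%) and the edgeR exact test 687. The members called went from 1 to 2, 0, 9 and 0 under these 4 settings, and the other absorptive genes called from 2 to 7, 1, 37 and 1. Spike-in totals turned the members' median log2 ratio to 0.52, which is -0.16 relative to the median gene, and the ratios of Fabp1 to 0.49, Fabp2 to 0.54, Lgals4 to 0.27, Vil1 to 0.36, Lct to 0.65, Alpi to 0.40 and Cdh17 to 0.13, because that scaling moves all genes by the same amount. The call of Sis was lost with the edgeR exact test (adjusted p = 0.11) and with the minimum of 100 counts, which it does not reach. DESeq2 size factors, library totals, a prior count of 2 and no count minimum kept them within 1.5 times. Depth limits Sis, with 8 counts in replicate 2, more than any other member.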

Other observations

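The 2 genes below act in bile acid handling in the ileum, the last stretch of the small intestine, and were chosen after their values were seen. Fabp6, the ileal bile acid carrier, had 108 counts in replicate 1 and 8 counts in replicate 2, a log2 ratio of 3.72 with an adjusted p of 6.7e-23 by the exact binomial test and of 4.05e-07 by the edgeR exact test. Slc10a2, the ileal bile acid importer, had 8 counts in replicate 1 and 0 in replicate 2, too few for a test. Of all genes tested, the binomial test called 5.91% higher in replicate 1, and the edgeR exact test called 3.28% in either direction. Of the 13 transporters with 20 or more counts in the sum, 10 had a ratio below 0 and 3 above. In the family of Fabp6, 5 of 13 such genes were below 0 and 8 above.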
